A study of Mus musculus with 14 samples.

Results

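Hair follicle stem cells are defined by a small set of DNA-binding transcription factors, and 8 of these genes are described here in EpdSCs, which renew the epidermis between the hair follicles, while SOX9 was switched on in them. The genes, chosen by name with earlier results of these data known, were *Lhx2*, *Nfatc1*, *Tcf7l1*, *Tcf7l2*, *Nfia*, *Nfib*, *Nfix* and *Tbx1*. Each had 1 row among the 54332 gene rows of the time course, and all 8 reached the mean level of 1 TPM that was set for testing. TPM is a level of transcripts per length relative to a total that is the same in every library.

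All libraries came from CD1 mice of the genotype K14rtTA; TRE-myc-Sox9, in which the *Krt14* promoter drives rtTA and DOX then turns on a MYC-tagged *Sox9* transgene. EpdSCs were sorted from back skin as CD49f-high, CD34-negative and Ly6A-high cells without CD31, CD45, CD117 or CD140a, with 2 libraries each at D0 (P21, before DOX), W1 (P28), W2 (P35), W6 (P63) and W12. For W12, newborn skin had been grafted onto Nude female hosts, so that 12 weeks of SOX9 and grafting cannot be told apart. Age rose with time on DOX, and no age-matched cells without the transgene were analysed here, so that age and SOX9 cannot be told apart either. P values measure the spread between 2 libraries per timepoint, which the labels call biological replicates. Where 1 library is left out below, its timepoint has a single library, which is assumed to vary as the other timepoints do, and such a P value says how much the call depends on the library left out.

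In adult skin, hair follicle stem cells rest in the bulge, below the sebaceous gland, and normally make hair rather than epidermis. LHX2, a LIM-homeodomain protein, maintains them, and NFATC1, which enters the nucleus when calcineurin removes its phosphates, holds them in quiescence. TCF7L1 and TCF7L2 bind WNT target genes and repress them with TLE corepressors until β-catenin arrives. NFIA, NFIB and NFIX belong to the nuclear factor I family, of which NFIB and NFIX maintain the stem cells' enhancers, and TBX1, a T-box protein, sustains their self-renewal by limiting BMP signalling.

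The transgene entry, MYC-SOX9, was listed between 45.6 and 89.6 TPM at D0 and between 606 and 3414 TPM in the 8 later libraries. The 6 epidermal genes that mark the sorted cells summed to between 31777 and 48297 TPM in every library, most of it *Krt14* and *Krt5*. At W6, 5 of the 6 were lower than at D0 and 0 higher (limma, adjusted *P* under 0.05), against 14.1% and 18.3% of all genes tested. At W12, 3 were lower and 1 higher, against 25.1% and 17.9%. Several libraries stood apart. D0 replicate 2 went against its label of a male mouse, with 4.61 TPM of *Xist* and 0.0278 TPM of *Ddx3y*, a gene of the Y chromosome. The W12 libraries held both *Xist* (5.51 and 3.50 TPM) and *Ddx3y* (10.97 and 12.9 TPM), and 4 of 4 endothelial markers (*Pecam1*, *Cdh5*, *Kdr* and *Tie1*) with a sum of 32.5 and 75.6 TPM against 0.0598 to 1.42 TPM in the other 8. The fibroblast gene *Dcn* was at 51.2 TPM in W6 replicate 2 and at 13.2 and 27.2 TPM in the W12 libraries, against at most 2.06 TPM in the other 7, with *Col1a1* at most 0.199 TPM in these 3. The sum of 10 immediate-early genes, which respond to cell dissociation among other stimuli, was 28102 and 44134 TPM at D0 and no more than 11992 TPM later. TPM give no depth, and in these bulk samples fewer cells of a type and less RNA per cell cannot be told apart.

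By mean level, 5 of the 8 genes were highest at W2 (*Nfatc1*, *Tcf7l1*, *Tcf7l2*, *Nfib* and *Nfix*) and 5 were lowest at W12 (*Nfatc1*, *Tcf7l2*, *Nfia*, *Nfib* and *Nfix*). These counts have no share of all genes beside them and are given as a description. At W1, 1 of the 8 was higher than at D0 (limma, adjusted *P* under 0.05) and 0 were lower, where 5.79% of all 13110 genes tested were higher and 4.10% lower. Without adjustment, 4 passed as higher and 3 as lower at W1, against 16.1% and 9.50% of all genes. At W2, 4 were higher and 0 lower, against 9.06% and 6.64% of all genes, with 5 higher and 0 lower without adjustment, against 18.1% and 13.2%. Both W2 libraries lay above both D0 libraries for 6 genes and below them for 0, as they did for 35.1% and 26.6% of all genes. The median log2 change at W2 was 0.83 over the 8 genes and 0.06 over all genes tested.

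At the later timepoints the calls were fewer at W6 and mostly downward at W12. At W6, 1 of the 8 genes was higher than at D0 and 0 were lower, against 18.3% and 14.1% of all genes, with 3 higher and 2 lower without adjustment, against 25.3% and 19.3%. At W12, 4 were lower and 1 was higher, against 25.1% and 17.9%. Both W12 libraries lay below both D0 libraries for 5 genes and above them for 1, against 41.9% and 32.8% of all genes. The median log2 change at W12 was −0.72 over the 8 genes and −0.08 over all genes. These comparisons share the D0 libraries.

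Between successive timepoints from W1 on, the falls that passed with adjustment came after W2. From W1 to W2, 0 of the 8 passed limma's test with adjustment and 3 without it, against 0.114% and 14.5% of all genes. From W2 to W6, 3 fell and 0 rose, against 8.31% and 7.99% of all genes. From W6 to W12, 5 fell and 1 rose, against 13.5% and 6.66%. Over all 4 later timepoints together, 7 of the 8 genes varied by the F test, as did 57.5% of all genes. Another scaling of the libraries changed the direction of none of the 8 in these comparisons, although it moved the share of higher calls among all genes, from 58.6% to 44.8% at W1, from 57.7% to 45.7% at W2, from 56.5% to 45.2% at W6 and from 33.0% to 55.8% between W6 and W12 with median-ratio scaling. The plot of TPM by timepoint shows the levels and the plot of log2 changes shows the tests.

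**Figure D1:**
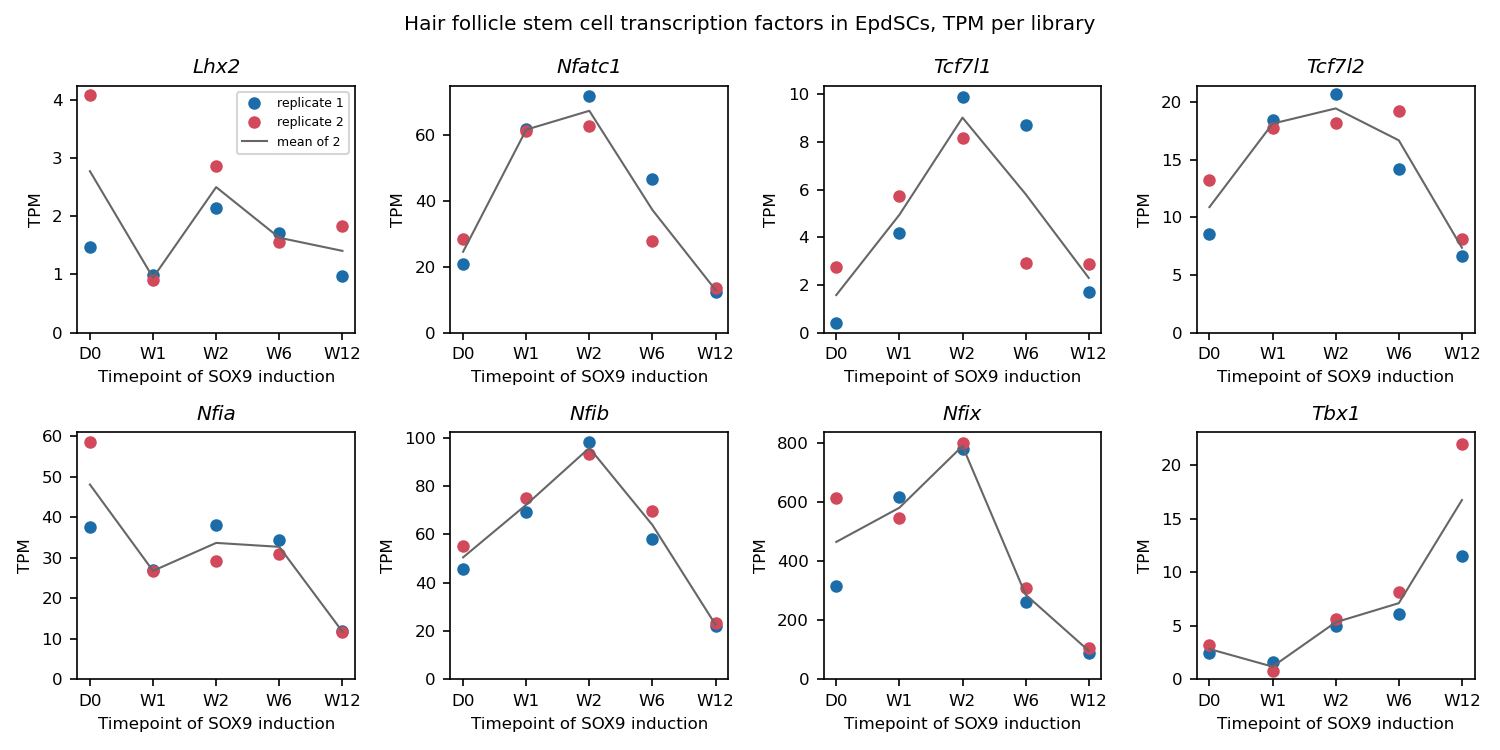
TPM of the 8 transcription factor genes (y axis of each panel, from 0) at D0, W1, W2, W6 and W12 (x axis), with 1 point per library and a line through the means of 2 libraries. *Nfix*, *Nfib*, *Nfatc1*, *Tcf7l1* and *Tcf7l2* peak at W2, *Tbx1* climbs to 11.5 and 22.0 TPM at W12, and *Lhx2* stays at or below 4.08 TPM.

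**Figure D2:**
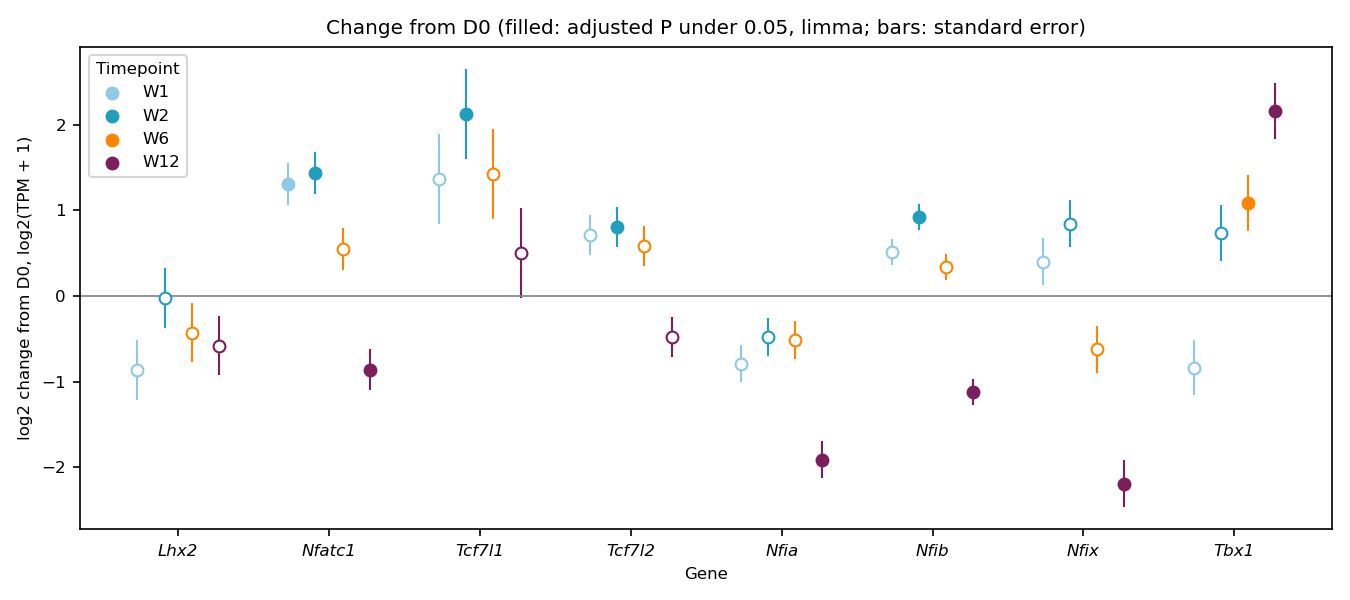
Log2 change from D0 of each gene on the log2(TPM + 1) scale (y axis) at W1, W2, W6 and W12, with bars of 1 SE and filled points where limma's adjusted *P* is under 0.05. The filled points lie above 0 for *Nfatc1* at W1, for *Nfatc1*, *Tcf7l1*, *Tcf7l2* and *Nfib* at W2, and for *Tbx1* at W6 and W12, and below 0 at W12 for *Nfatc1*, *Nfia*, *Nfib* and *Nfix*.

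The nuclear factor I genes *Nfix* and *Nfib* had the highest mean levels of the set at every timepoint. *Nfix* (ENSMUSG00000001911.16), on the minus strand of GRCm38 chr8:84699876-84800344, was listed at 315 and 616 TPM at D0, 617 and 547 TPM at W1, 781 and 801 TPM at W2, 263 and 310.0 TPM at W6, and 87.3 and 105 TPM at W12. Both W2 libraries were above, and both W12 libraries below, all others. From the W2 mean of 791 ± 14.4 TPM (SD, n = 2) to the W12 mean of 96.0 ± 12.3 TPM (SD, n = 2) it differed 8.24-fold. On the log2(TPM + 1) scale, which understates changes of low genes, the change at W2 of 0.84 (SE 0.27) did not pass limma's test (adjusted *P* = 0.0715). *Nfix* fell from W2 to W6 by 1.47 (SE 0.27, adjusted *P* = 0.0129) and stood 2.19 below D0 at W12 (log2 change −2.19, SE 0.27, adjusted *P* = 0.000493). The D0 libraries of *Nfix* decided the W2 call, as the change was 1.32 without D0 replicate 2 (adjusted *P* = 0.00449) and 0.36 without D0 replicate 1 (adjusted *P* = 0.176). Of the genes that overlap any of the 8 loci, the most abundant was G430095P16Rik on the strand opposite *Nfix*, with at most 2.84 TPM.

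*Nfib* (ENSMUSG00000008575.17), on the minus strand of chr4:82290173-82705750, was also highest at W2 and lowest at W12, at a lower level, but unlike *Nfix* its W6 libraries lay above both D0 libraries. It was listed at 45.7 and 55.3 TPM at D0, 69.5 and 75.1 TPM at W1, 98.5 and 93.3 TPM at W2, 57.9 and 69.9 TPM at W6, and 21.9 and 23.2 TPM at W12. Each W2 library was above, and each W12 library below, every other library. *Nfib* rose by W2 (log2 change 0.92, SE 0.15, adjusted *P* = 0.00522), fell from W2 to W6 by 0.58 (SE 0.15, adjusted *P* = 0.0367) and fell from W6 to W12 by 1.46 (SE 0.15, adjusted *P* = 0.000541). At W12 it was 1.12 below D0 (log2 change −1.12, SE 0.15, adjusted *P* = 0.000732). The call from W2 to W6 was lost in 12 of 20 alternative analyses, while the call at W12 against D0 held in 19 of 19. The call at W2 against D0 was lost in 2 of 20, among them that without W2 replicate 1 (log2 change 0.88).

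*Nfia* (ENSMUSG00000028565.18), on the plus strand of chr4:97772734-98118874, had no peak at W2. It was listed at 37.6 and 58.5 TPM at D0, 26.8 and 26.6 TPM at W1, 38.1 and 29.2 TPM at W2, 34.4 and 31.0 TPM at W6, and 11.9 and 11.5 TPM at W12. The D0 and W2 libraries overlapped, and both W12 libraries lay below all others. The change at W1 of −0.79 (SE 0.22) had an adjusted *P* of 0.0574 in limma, with −1.10 without D0 replicate 1 (adjusted *P* = 0.0113) and −0.48 without D0 replicate 2 (adjusted *P* = 0.185). At W12 *Nfia* was lower than at D0 (log2 change −1.91, SE 0.22, adjusted *P* = 0.000321) and than at W6 (log2 change −1.40, SE 0.22, adjusted *P* = 0.00422), and both calls held in every alternative run.

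The fourth gene of the family, *Nfic*, rose and fell with *Nfib*. Its level was 89.2 and 105 TPM at D0, then 207 and 179 TPM at W2, with 30.3 and 40.4 TPM left at W12, and it passed at W2 (log2 change 0.98, SE 0.17, adjusted *P* = 0.00705) and at W12 (log2 change −1.44, SE 0.17, adjusted *P* = 0.000415). The sum of the 4 genes went from 488 and 835 TPM at D0 through 1124 and 1103 TPM at W2 to 151 and 179.8 TPM at W12. *Nfix* supplied between 64.6% and 73.8% of this sum in the 6 libraries up to W2, and between 54.9% and 59.5% in the 4 libraries of W6 and W12. The share of *Nfia* was 7.01% and 7.70% at D0, between 2.64% and 3.39% at W1 and W2, and between 5.95% and 7.88% later. The share of *Nfib* reached 12.1% to 14.5% at W6 and W12, above all 6 earlier libraries. The stacked bars of the family shares show these proportions, which are given as a description without a test.

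**Figure D3:**
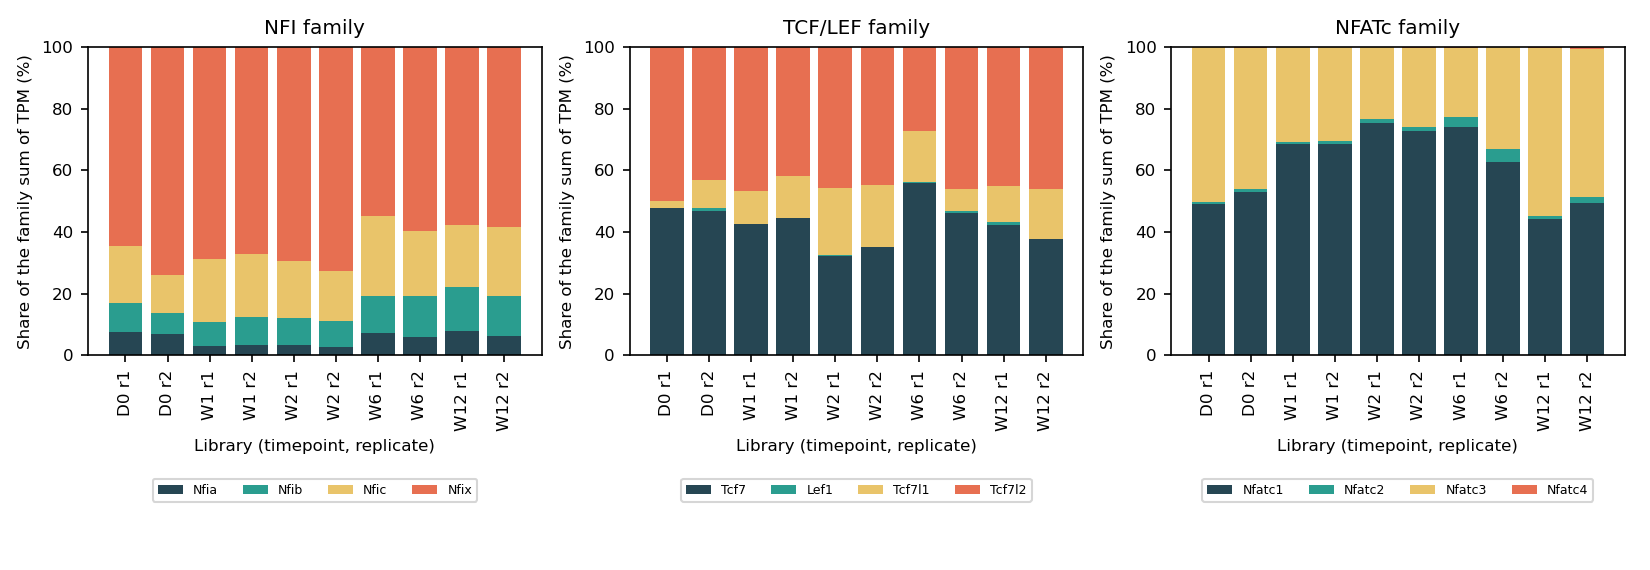
Percent of the summed TPM of each family (y axis) that came from each of its genes, in every library (x axis), for the nuclear factor I, TCF/LEF and NFATc families. *Nfix* takes the largest part of its family in all 10 libraries, and *Nfatc1* takes 72.8% and 75.4% of its family at W2 against 49.2% and 53.0% at D0.

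*Nfatc1* (ENSMUSG00000033016.16), on the minus strand of chr18:80606205-80713071, had risen by W1. It was listed at 20.7 and 28.3 TPM at D0, 61.8 and 61.2 TPM at W1, 71.8 and 62.7 TPM at W2, 46.6 and 27.7 TPM at W6, and 12.3 and 13.5 TPM at W12. The libraries of W1 and W2 lay above all others, those of W6 and D0 overlapped, and those of W12 lay below all others. *Nfatc1* was the one gene of the 8 that passed at W1 (log2 change 1.31, SE 0.24, adjusted *P* = 0.0119), a call lost in 4 of 21 alternatives, among them those without either W1 library. It was also higher at W2 (log2 change 1.43, SE 0.24, adjusted *P* = 0.00590). That call was lost in 1 of 20 alternatives, without W2 replicate 1 (log2 change 1.34). It fell from W6 to W12 by 1.41 (SE 0.24, adjusted *P* = 0.00650) and was 0.86 below D0 at W12 (log2 change −0.86, SE 0.24, adjusted *P* = 0.0209). The fall from W2 to W6, of 0.88 (SE 0.24, adjusted *P* = 0.0427), was lost in 14 of 20 alternatives, and the call at W12 in 6 of 19, among them the one without D0 replicate 2 (log2 change −0.64, adjusted *P* = 0.123). Without D0 replicate 1 the W12 change was −1.08 (adjusted *P* = 0.0159).

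The W6 libraries of *Nfatc1* differed, and the lower one, replicate 2, was the library with the highest *Dcn*. The change of *Nfatc1* from D0 at W6 was 0.55 (SE 0.24, adjusted *P* = 0.114) with both libraries, 0.92 without replicate 2 (adjusted *P* = 0.0185) and 0.19 without replicate 1 (adjusted *P* = 0.517). In W6 replicate 2, *Col1a1*, *Col1a2*, *Col3a1*, *Lum* and *Pdgfra*, the other fibroblast markers listed, were each at most 0.550 TPM. The part of RNA from other cells in the *Nfatc1* gap was not tested. *Nfatc3*, the other abundant NFATc gene, stayed between 21.1 and 27.6 TPM from D0 to W2 and between 13.0 and 15.2 TPM at W6 and W12. *Nfatc1* thus made up 49.2% and 53.0% of the summed NFATc transcripts at D0, between 68.4% and 75.4% at W1 and W2, 74.1% and 62.6% at W6, and 44.2% and 49.5% at W12.

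*Tcf7l1* and *Tcf7l2* are the TCF genes of the resting hair follicle stem cell. *Tcf7l1* (ENSMUSG00000055799.13), on the minus strand of chr6:72626378-72789254, was a low gene, listed at 0.392 and 2.75 TPM at D0, 4.16 and 5.72 TPM at W1, 9.87 and 8.16 TPM at W2, 8.71 and 2.90 TPM at W6, and 1.69 and 2.90 TPM at W12. The 4 libraries of W1 and W2 were above both of D0, and W12 overlapped D0. The W2 rise was the largest of the 8 genes at that timepoint (log2 change 2.13, SE 0.53, adjusted *P* = 0.0283). It rested on D0 replicate 1, the library at 0.392 TPM, since without it the change was 1.41 (adjusted *P* = 0.0971) and without D0 replicate 2 it was 2.84 (adjusted *P* = 0.0158), and it was lost in 9 of 19 alternatives. At W6 the 2 libraries differed 8.71 to 2.90 TPM, and the change of 1.43 (SE 0.53) did not pass (adjusted *P* = 0.0674), while it was 2.09 without replicate 2 (adjusted *P* = 0.0297) and 0.77 without replicate 1 (adjusted *P* = 0.303).

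*Tcf7l2* (ENSMUSG00000024985.20), on the plus strand of chr19:55741820-55933654, was listed at 8.55 and 13.2 TPM at D0, 18.5 and 17.8 TPM at W1, 20.7 and 18.2 TPM at W2, 14.2 and 19.2 TPM at W6, and 6.64 and 8.07 TPM at W12. All 6 libraries from W1 to W6 lay above both D0 libraries, which lay above both of W12. The W2 rise passed narrowly (log2 change 0.81, SE 0.23, adjusted *P* = 0.0488) and was lost in 15 of 20 alternatives, among them the one without D0 replicate 1 (log2 change 0.52, adjusted *P* = 0.157). Without D0 replicate 2 it was 1.09 (adjusted *P* = 0.0262). From W6 to W12 *Tcf7l2* fell by 1.07 (SE 0.23, adjusted *P* = 0.0155), a call lost in 4 of 20, and the W12 change from D0 of −0.48 (SE 0.23) did not pass (adjusted *P* = 0.124).

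Among the TCF/LEF genes, *Tcf7* and *Tcf7l2* supplied most transcripts and *Lef1*, the partner of β-catenin in hair matrix cells, was at most 0.357 TPM. *Tcf7l1* made up 2.29% and 8.997% of the family's sum at D0, 10.5% and 13.5% at W1, 21.8% and 20.1% at W2, 16.7% and 6.99% at W6, and 11.5% and 16.5% at W12. *Tcf7l2* contributed between 41.8% and 49.9% in 9 libraries and 27.2% in W6 replicate 1, where *Tcf7* reached 29.2 TPM.

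The promoters of *Tcf7l1* and *Tcf7l2*, which were higher at W2, are printed beside those of *Nfia* and *Tbx1*, which did not pass there, so they were picked with these results known. RefSeq promoters on GRCm38.p6, from 250 bases before to 50 bases after a start, were at hand for 6 of the 8 genes, with 12 starts. Each runs 5′ to 3′ along the gene's strand, and capitals mark the SOX core letters ACAAAG or ACAATG and the TCF/LEF core letters TCAAAG, each on either strand.
Tcf7l1 promoter (chr6:72788996-72789295, minus strand): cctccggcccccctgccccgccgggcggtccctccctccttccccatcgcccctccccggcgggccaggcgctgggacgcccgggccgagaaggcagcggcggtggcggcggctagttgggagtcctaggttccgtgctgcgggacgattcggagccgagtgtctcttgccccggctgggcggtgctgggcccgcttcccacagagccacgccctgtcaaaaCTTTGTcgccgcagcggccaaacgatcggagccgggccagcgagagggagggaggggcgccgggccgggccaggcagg
Tcf7l2 promoter (chr19:55741560-55741859, plus strand): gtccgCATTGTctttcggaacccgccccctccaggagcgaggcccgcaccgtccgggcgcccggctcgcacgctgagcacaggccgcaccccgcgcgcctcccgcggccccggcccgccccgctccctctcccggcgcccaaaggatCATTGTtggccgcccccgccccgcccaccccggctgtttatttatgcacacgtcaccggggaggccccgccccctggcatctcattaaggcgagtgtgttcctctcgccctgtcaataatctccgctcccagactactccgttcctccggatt
Nfia promoter (chr4:97581693-97581992, plus strand): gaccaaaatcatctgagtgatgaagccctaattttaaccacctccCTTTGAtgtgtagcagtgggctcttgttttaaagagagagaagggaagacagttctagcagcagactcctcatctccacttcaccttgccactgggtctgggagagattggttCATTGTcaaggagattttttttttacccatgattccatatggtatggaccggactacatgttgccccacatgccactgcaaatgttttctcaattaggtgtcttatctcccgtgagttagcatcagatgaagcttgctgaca
Tbx1 promoter (chr16:18590622-18590921, minus strand): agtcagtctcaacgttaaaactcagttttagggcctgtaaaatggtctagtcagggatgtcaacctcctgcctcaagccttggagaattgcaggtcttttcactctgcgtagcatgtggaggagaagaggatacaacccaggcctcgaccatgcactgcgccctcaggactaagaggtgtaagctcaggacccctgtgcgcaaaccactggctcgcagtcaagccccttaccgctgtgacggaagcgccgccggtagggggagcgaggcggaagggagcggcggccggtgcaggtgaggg
The *Tcf7l1* window holds CTTTGT, the reverse complement of ACAAAG, from −28 to −23 relative to the start. The printed *Tcf7l2* window holds CATTGT, the reverse complement of ACAATG, from −245 to −240 and from −103 to −98. Another *Tcf7l2* window, chr19:55895071-55895370, is not printed. It holds CTTTGT from −14 to −9 and TGCCAA, the reverse complement of the nuclear factor I letters TTGGCA, from −41 to −36. The *Nfia* window, whose RefSeq start lies upstream of the GENCODE gene given above, holds CATTGT from −92 to −87 and CTTTGA, the reverse complement of the TCF/LEF core, from −205 to −200, and SOX cores are also in 2 of the 4 *Nfix* windows, so that cores were found at genes that passed at W2 and at genes that did not. In the *Tbx1* window neither of the SOX cores was found, nor the TCF/LEF core TCAAAG, which overlaps the first SOX core in its last 5 letters, nor the nuclear factor I site TTGGCA. Of the SOX cores, ACAAAG is in 18.7% and ACAATG in 12.6% of 32851 RefSeq promoters of this length, TCAAAG in 16.0% and TTGGCA in 14.1%, and either SOX core is in 28.6% of all promoters and in 6 of the 12 of these genes, whose windows share genes. A match describes letters and is not a binding site.

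*Tbx1* (ENSMUSG00000009097.10), on the minus strand of chr16:18580979-18590671, was the one gene of the 8 that was highest at W12. It was listed at 2.43 and 3.19 TPM at D0, 1.59 and 0.745 TPM at W1, 4.997 and 5.63 TPM at W2, 6.09 and 8.11 TPM at W6, and 11.5 and 22.0 TPM at W12. No library of W2 overlapped one of W6, nor one of W6 one of W12, and the W1 libraries were the lowest. *Tbx1* was higher at W6 than at D0 (log2 change 1.08, SE 0.32, adjusted *P* = 0.0333) and at W12 (log2 change 2.16, SE 0.32, adjusted *P* = 0.00120), where its mean was 14.4-fold that of W1. The W12 call held in 19 of 19 alternatives, with a change of 1.72 without W12 replicate 2 (adjusted *P* = 0.0100). The W6 call was lost in 8 of 21, including those without either D0 library, and the rise from W6 to W12 of 1.08 (SE 0.32, adjusted *P* = 0.0477) was lost in 15 of 20.

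The W12 libraries were also those with endothelial transcripts, in the same order within the pair. *Pecam1*, which encodes the CD31 that the sort selected against, was listed at 26.1 and 59.8 TPM at W12, *Cdh5* at 1.61 and 3.64 TPM, *Kdr* at 1.16 and 3.4 TPM, and *Tie1* at 3.65 and 8.76 TPM. *Cdh5* was at 0 in all 6 libraries up to W2 and at most 0.0518 TPM at W6. At W6 *Tbx1* was at 6.09 and 8.11 TPM and the endothelial sum at 0.678 and 1.42 TPM. *Cd34*, a bulge as well as an endothelial gene, was at 16.5 and 32 TPM at W12. *Cd74*, an antigen presentation gene of immune cells, was at 102 and 124 TPM there, while the pan-immune *Ptprc* was at most 0.327 TPM in any library. Of 5 melanocyte markers, 3 were tested and 2 were higher at W12 than at D0, and their sum was 12.5 and 10.9 TPM at W12 against 1.22 and 4.89 TPM at D0, while W6 replicate 2, at 11.7 TPM, was as high as the W12 libraries. The part of RNA from other cells in the *Tbx1* level at W12 was not tested. The bars of *Tbx1* beside the marker sums show these values.

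**Figure D4:**
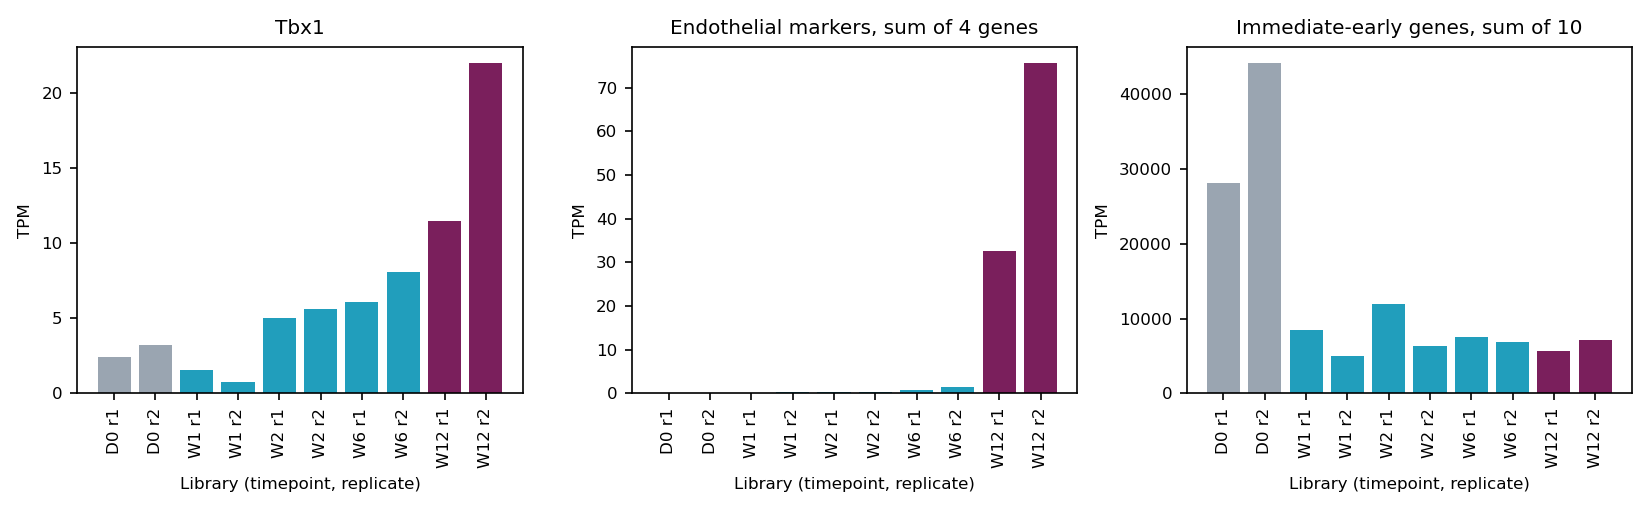
TPM of *Tbx1*, the summed TPM of 4 endothelial markers and the summed TPM of 10 immediate-early and heat shock genes (y axes, from 0) in each of the 10 libraries (x axis). *Tbx1* and the endothelial sum are both highest in the W12 libraries, and the immediate-early sum is highest in those of D0.

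*Lhx2* (ENSMUSG00000000247.11), on the plus strand of chr2:38339281-38369733, had the lowest mean of the 8 genes from W1 on and passed no test with adjustment. Its libraries overlapped those of *Tbx1* at W1 and those of *Tcf7l1* at W12. It was listed at 1.47 and 4.08 TPM at D0, 0.982 and 0.904 TPM at W1, 2.13 and 2.86 TPM at W2, 1.70 and 1.55 TPM at W6, and 0.974 and 1.83 TPM at W12. The D0 libraries spanned those of W2 and W6 and overlapped those of W12, and both W1 libraries lay below both of D0. The log2 change at W1 was −0.86 (SE 0.35, adjusted *P* = 0.160), and that at W2 was −0.02, with a 95% interval from −0.81 to 0.76 (adjusted *P* = 0.976). Which D0 library was used decided what passed. Without D0 replicate 1, the log2 change of *Lhx2* was −1.39 at W1 (adjusted *P* = 0.0256), −0.95 at W6 (adjusted *P* = 0.0418) and −1.10 at W12 (adjusted *P* = 0.0202), all against the single D0 library at 4.08 TPM. Without D0 replicate 2, none of these passed, with changes of −0.34 (adjusted *P* = 0.543), 0.091 (adjusted *P* = 0.874) and −0.061 (adjusted *P* = 0.901). The F test over all timepoints gave an adjusted *P* of 0.182.

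The D0 pair thus bears on several of these genes. With a single D0 library, the tests take the spread from the other timepoints, so the calls here show dependence on that library and are not results of their own. Without D0 replicate 2, the library whose sex genes went against its label, 3 genes were higher and 0 lower at W1, among them *Tcf7l2* (log2 change 1.00, adjusted *P* = 0.0420) and *Nfix* (0.88, adjusted *P* = 0.0220), where 7.86% of all genes were called in either direction in the same fit. At W2, 5 were then higher and 0 lower, *Nfix* in addition to the 4 above, against 10.9% of all genes called. At W6, *Tcf7l1* and *Tcf7l2* were higher in place of *Tbx1* and 0 were lower, against 18.0%. At W12, 3 were lower (*Nfia*, *Nfib* and *Nfix*) and 1 was higher (*Tbx1*, log2 change 2.30, adjusted *P* = 0.00645), against 28.5%.

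With D0 replicate 1 left out instead, more of the calls were downward. At W1, *Nfatc1* was then higher and *Lhx2* and *Nfia* were lower, where 13.5% of all genes were called in either direction in that fit. At W2, *Nfatc1* and *Nfib* were higher and *Nfia* was lower (log2 change −0.79, adjusted *P* = 0.0276), against 19.6% of all genes called. At W6, *Lhx2*, *Nfia* (log2 change −0.82, adjusted *P* = 0.0126) and *Nfix* (−1.11, adjusted *P* = 0.00218) were lower and 0 were higher, against 38.5%. At W12, *Tbx1* was higher and 6 were lower, with *Lhx2* and *Tcf7l2* (log2 change −0.77, adjusted *P* = 0.0275) in addition to the 4 above, against 47.0%. The calls that passed with either D0 library alone were *Nfatc1* higher at W1, *Nfatc1* and *Nfib* higher at W2, and at W12 *Nfia*, *Nfib* and *Nfix* lower and *Tbx1* higher. This list concerns the D0 libraries only, and the W2 calls of *Nfatc1* and *Nfib* were both lost without W2 replicate 1.

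The summed level of sebocyte markers was also higher after D0, mostly through 1 gene. Of 3 such markers, *Mc5r* was at most 0.244 TPM in every library, while the sum of the 3 was 59.0 and 71.2 TPM at D0, 145 and 151 TPM at W1, 377 and 379 TPM at W2, then 272 and 363 TPM at W6 and 178 and 245 TPM at W12. Most of that sum was *Mgst1*, with 28.3 and 44.2 TPM in the D0 libraries against 338 and 344 TPM in those of W2, while *Scd1*, a lipid synthesis gene, was lower at W1 (15.7 and 15.48 TPM against 27.0 and 30.6 TPM, log2 change −0.84, SE 0.19, adjusted *P* = 0.0279) higher at W6 (58.7 and 41.7 TPM, log2 change 0.76, SE 0.19, adjusted *P* = 0.0175) and lower at W12 (log2 change −0.55, SE 0.19, adjusted *P* = 0.0478). *Acta2*, a smooth muscle gene, was higher than D0 at all 4 later timepoints, from 1.13 and 2.83 TPM at D0 to between 4.60 and 11.5 TPM, with a log2 change of 1.97 at W2 (SE 0.33, adjusted *P* = 0.00542). The other smooth muscle and pericyte markers listed stayed low in every library, with *Myh11* at most 0.0338, *Des* at most 0.0741 and *Rgs5* at most 0.928 TPM. The immediate-early sum was highest at D0, the reference of these changes. The part of these markers in the changes of the 8 genes was not tested.

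Since TPM are per length, the 8 genes can also be ordered within a timepoint. *Nfix* was the highest at every timepoint, with libraries above those of the next gene. At W2 the order was *Nfix*, *Nfib*, *Nfatc1*, *Nfia*, *Tcf7l2*, *Tcf7l1*, *Tbx1* and *Lhx2*, and no neighbours overlapped. At D0 *Nfib* overlapped *Nfia*, which came before *Nfatc1*, and the libraries of *Tbx1*, *Lhx2* and *Tcf7l1* overlapped in turn. At W12 *Tbx1* had moved up to the level of *Nfib* and *Nfatc1*, and its libraries overlapped both.

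Over the 10 libraries, *Nfatc1*, *Tcf7l2*, *Nfib* and *Nfix* had similar patterns on the log2(TPM + 1) scale. Pearson's *r* between any pair of these 4 was 0.83 to 0.94, over 10 libraries that form 5 pairs of replicates, and is given as a description. *Tbx1* had *r* of −0.70 with *Nfix* and −0.62 with *Nfatc1*, and *Lhx2* had its highest with *Nfia* (0.53). Among 9880 genes whose mean reached 5 TPM, those most like *Nfatc1* were *Atp13a2*, *Ube2r2* and *Dynll2* (*r* of 0.99 each), and those most like *Nfix* were *Med13l*, *Fam76a* and *Acsf2* (0.99 each). The highest for *Nfib* were *Gatd1*, *Atg7* and *Psme3ip1* (0.98 each), for *Nfia* *Il20rb*, *Aldh4a1* and *Rasgrp1* (0.98, 0.96 and 0.96), and for *Tcf7l2* *Slc29a3*, *Rdx* and *Pou2f1* (0.99, 0.97 and 0.96). *Tcf7l1* was most like *Csgalnact1*, *Rab11fip5* and *Plcg2* (0.95, 0.93 and 0.93), *Tbx1* most like *Orai2*, *Ssr3* and *Bvht* (0.97, 0.94 and 0.94), and *Lhx2* most like *Hibadh*, *Fzd6* and *Slc2a1* (0.87, 0.86 and 0.84).

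The other genes around these factors are given by list, to be read against 9.06% of all genes higher and 6.64% lower at W2 (median log2 change 0.06), and 17.9% higher and 25.1% lower at W12 (median −0.08). These lists, too, were chosen with earlier results of these data known.

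Few paralogues of the 8 genes were high enough over all libraries to be tested. Of 29 paralogues, 5 reached a mean of 1 TPM. *Nfic* alone of these was higher at W2, and 3 were lower at W12, among them *Nfic* and *Mga*, a T-box repressor (log2 change −1.002, SE 0.25, adjusted *P* = 0.0131). No *Tbx* or *Lhx* paralogue was among the 5, and *Lhx6* was at 1.47 and 2.73 TPM in the W12 libraries and at most 0.239 TPM in all others.

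Partners of the 8 proteins moved mostly downwards at W12. Of 29 tested cofactors and calcineurin pathway genes, 3 were higher and 1 was lower at W2 (median log2 change 0.01), and 3 were higher and 16 lower at W12 (median −0.92). *Tle1*, a corepressor of TCF proteins, rose from 15.1 and 10.6 TPM at D0 to 60.7 and 52.5 TPM at W2 (log2 change 2.07, SE 0.28, adjusted *P* = 0.00215). Its paralogue *Tle4*, named after its values were seen, fell from 23.8 and 36.2 TPM to 12.8 and 11.9 TPM (log2 change −1.19, SE 0.22, adjusted *P* = 0.00804), so that members of one corepressor family moved in opposite directions.

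LHX2 acts with LDB cofactors, and LMO proteins compete for them. *Lmo1* rose from 72.2 and 72.4 TPM at D0 to 209 and 216 TPM at W2 (log2 change 1.54, SE 0.22, adjusted *P* = 0.00286). *Ldb2* was listed at 0 in the 6 libraries up to W2 and in W6 replicate 1, and at 5.89 and 9.79 TPM at W12. *Lmo2*, which like *Ldb2* is expressed in endothelium, was at most 0.237 TPM up to W6 and at 3.16 and 6.25 TPM at W12, in the libraries with endothelial markers. Both genes reached the mean of 1 TPM for testing only through W12, so no *P* value is given for them. Both count among the cofactors called higher at W12. The part of endothelial RNA in these was not tested.

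Of 22 tested genes in the list of other hair follicle stem cell factors, 12 were higher and 5 lower at W2 (median log2 change 0.61), and 4 were higher and 8 lower at W12 (median −0.48). *Runx1*, a factor that drives hair follicle stem cells into growth, rose from 6.98 and 8.04 TPM at D0 to 74.0 and 53.8 TPM at W2 (log2 change 2.92, SE 0.21, adjusted *P* = 0.000122). *Irx4*, an Iroquois homeobox gene, went from 11.96 and 6.46 TPM to 76.4 and 62.7 TPM (log2 change 2.84, SE 0.49, adjusted *P* = 0.00625). *Ets2* fell by 2.56 (SE 0.33, adjusted *P* = 0.000555) and *Zfp36l1*, which encodes an RNA-binding protein, fell by 2.05 (SE 0.39, adjusted *P* = 0.00361) from D0 to W12, in a comparison whose D0 libraries had the higher immediate-early sums.

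Of 22 tested hair follicle stem cell and outer root sheath markers, 11 were higher and 1 lower at W2 (median log2 change 1.21), and 10 were higher and 7 lower at W12 (median 0.72). *Krt6a*, a keratin of the companion layer and of stressed epidermis that can share reads with *Krt6b*, had a log2 change of 3.78 at W2 (adjusted *P* = 0.00147) and 8.10 at W12 (adjusted *P* = 1.25e-05). *Krt15*, the keratin of the bulge that basal epidermis also makes, fell from 11241 and 11928 TPM at D0 to 322 and 242 TPM at W12 (log2 change −5.37, SE 0.44, adjusted *P* = 5.73e-05). *Krt79*, a keratin of the upper hair follicle, rose from 330.4 and 147 TPM at D0 to 2838 and 3670.4 TPM at W2 (log2 change 3.87, SE 0.50, adjusted *P* = 0.00175) and was at 327 and 528 TPM at W12.

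Of 20 epidermal transcription factors, all tested, 1 was higher and 7 were lower at W2 (median −0.38), and 2 were higher and 12 lower at W12 (median −0.90). Here too, the D0 libraries had the higher immediate-early sums. *Gata3*, which is needed for the epidermal barrier, fell from 241 and 346 TPM at D0 to 27.2 and 27.8 TPM at W12 (log2 change −3.35, SE 0.29, adjusted *P* = 8.24e-05). *Hes1*, a NOTCH target, fell from 880 and 744 TPM to 207 and 147 TPM at W2 (log2 change −2.21, SE 0.33, adjusted *P* = 0.00312), and by W12 its change was −2.93 (SE 0.33, adjusted *P* = 0.000268). *Ovol1*, a zinc finger repressor of keratinocyte growth, fell from 109 and 118 TPM to 36.4 and 34.8 TPM at W2 (log2 change −1.64, SE 0.30, adjusted *P* = 0.00811). It was back at 107 and 49.3 TPM at W6 and at 105 and 101 TPM at W12.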

How the data were processed

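RNA-seq of sorted EpdSCs was analysed, with 2 libraries at each of 5 timepoints grouped by their labels. The deposited values are TPM. To make them, the authors trimmed the reads (Skewer), quantified transcripts (Salmon 1.4.0) on GENCODE transcripts of GRCm38 plus the transgene, and summed these to genes (Tximport 1.12.3). TPM keep no depth, so that depth and counting error are unknown. Files of the 4 placode libraries hold only the authors' own comparison (DESeq2) and were not used.

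The 13110 genes whose mean reached 1 TPM were tested on log2(TPM + 1) with limma 3.58.1 in R 4.3.3, with the means of 5 timepoints fitted over all 10 libraries, eBayes with a trend, and Benjamini-Hochberg adjustment over all genes tested. The authors tested counts, which TPM do not permit. The members and lists were chosen with earlier results of these data known. All 8 members were named, as were, per other list, the 2 called genes with the largest changes at W2 and at W12, and the 3 genes most correlated with each member. Of 32 cofactors listed, *Aes* was not matched. Loci are from GENCODE M21, promoters from RefSeq. Python 3.11.15 was used for the other steps, and simulated data were used to test the limma step. Same-numbered libraries did not deviate together (correlations −0.13 to 0.18), and their numbers were not taken as pairs.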

Additional observations from a re-analysis of the deposited data

How the results depend on the processing

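The alternatives were another pseudocount, all genes above 0 TPM, a minimum mean of 5 TPM, median-ratio and quantile scaling, no trend, only the libraries compared, a minimum log2 change of 1, the replicate block and each replicate left out. Leaving out both W12 libraries and crossed replicate numbers were chosen after seeing the data. Genes called among the 8 numbered 1 at W1, 4 at W2, 1 at W6 and 3 from W2 to W6. With all genes above 0 TPM these were 0, 2, 0 and 0, and with only the 4 libraries compared 0, 2, 0 and 1. They were 2 at W1 with quantile scaling, 0 at W6 with median-ratio scaling and 1 from W2 to W6 without a trend. With a minimum log2 change of 1 they were 2 at W2 and 1 from W2 to W6, and without both W12 libraries 2 and 1, with 4 by the F test. With each replicate left out, the counts ranged from 0 to 3 at W1, 0 to 5 at W2, 0 to 3 at W6, 4 to 7 at W12, 0 to 3 from W2 to W6, 3 to 5 from W6 to W12 and 6 to 7 by the F test, and stayed 0 from W1 to W2. The replicate block gave 1, 3, 1 and 5 at W1, W2, W6 and W12, 0, 2 and 5 between successive timepoints and 6 by the F test, and with the D0 numbers crossed 2 at W1. The directions that turned were those of small log2 changes. With each replicate left out, *Lhx2* ranged from −0.55 to 0.50 at W2, from −0.95 to 0.091 at W6 and from −0.41 to 0.11 between W6 and W12, *Tcf7l1* from −0.21 to 1.22 at W12, *Nfia* from −0.22 to 0.16 between W2 and W6 and *Nfix* from −0.085 to 0.88 at W1, and with a pseudocount of 0.1 TPM *Lhx2* was 0.0081 at W2. The causes were not tested. Median-ratio scaling shifted the median of all genes by −0.10 at W1, −0.13 at W6 and 0.14 from W6 to W12, and quantile scaling by 0.10 from W6 to W12.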
